A study of Takifugu obscurus and Periophthalmus magnuspinnatus and Gallus gallus with 6 samples.

Results

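Neuropeptide genes of the fugu spinal cord were described here, 8 genes of the 21383 in the fugu count tables. They are sst1.1 (somatostatin), tac1 (the precursor of substance P and neurokinin A), penka (proenkephalin), nppc (C-type natriuretic peptide), pnocb (prepronociceptin), NPY (neuropeptide Y), adcyap1b (the PACAP precursor) and npb (neuropeptide B). The 8 genes were chosen because they lead the fugu neuron populations in these same counts, so their levels in neurons and in the 2 transmitter classes below are given as a description, with no test. Each was matched by its symbol in the gene list of the files, and all 8 were found.

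Single-cell RNA sequencing with 10x 3' chemistry was performed on live cells of the rostral spinal cord, sorted with propidium iodide. The fugu, labelled Takifugu obscurus and described in the study's methods as a hybrid with Takifugu rubripes, were juveniles of about 1 month after hatching and gave 2 libraries. Chicken embryos of embryonic day 10 to 11 gave another 2 libraries, which served as a comparison, and the mudskipper libraries were not used here. Each library pooled the cords of several animals, so that the library was the replicate and p-values measure the spread between libraries, not between animals.

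Neuropeptides are made as larger precursors, cut by proprotein convertases, stored in dense-core vesicles and released beside a fast transmitter, and they act on G-protein-coupled or guanylyl cyclase receptors. In the dorsal horn of mammals, tachykinins and PACAP are known for pain transmission, while enkephalin, nociceptin, somatostatin and neuropeptide Y are known for damping it. The enzyme encoded by gad1b makes GABA and marks inhibitory neurons, and the vesicular glutamate transporters encoded by slc17a6b and SLC17A6 mark excitatory neurons.

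The fugu libraries held 25763932 and 25721131 unique molecular identifiers (UMIs, each standing for 1 captured RNA molecule), and 2556 and 2519 cells with over 3000 UMIs were kept, at a median of 5386 and 5455 UMIs. The 2 libraries shared 0 kept barcodes and differed by more than counting error. Clusters of the kept cells named from marker genes included 671 neuron-like and 2347 oligodendrocyte-like cells. The gene gad1b had a UMI in 36.0% and 37.1% of neuron-like cells in libraries 1 and 2, against 2.51% and 2.52% of oligodendrocyte-like cells, and the shares of the peptide genes in oligodendrocyte-like cells are given below as background. Of the kept cells, 167 and 163 had gad1b without slc17a6b or SLC17A6 (the gad1b class), 230 and 257 had slc17a6b or SLC17A6 without gad1b (the slc17a6 class), and 13 in each library had both. The 2 classes had alike depth, at medians of 5503 and 5668 UMIs against 5491 and 5776, and 66.5% and 69.9% of gad1b cells against 67.0% and 63.8% of slc17a6 cells lay in neuron-like clusters.

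Of the genes, 5 were carried by a larger share of gad1b cells than of slc17a6 cells in both libraries, where carried means at least 1 UMI. The other 3 were carried by a larger share of slc17a6 cells. The same order was not counted over all genes, so these counts only describe the chosen genes. The largest gap on the inhibitory side was that of nppc, whose product acts through a guanylyl cyclase receptor and is known for guiding sensory axon branching in mice. It was carried by 47.3% of gad1b cells in library 1 (95% exact interval 39.5 to 55.2%) and 51.5% in library 2 (43.6 to 59.4%), against 18.7% (13.9 to 24.3%) and 19.1% (14.5 to 24.4%) of slc17a6 cells. Its summed level was 5362 and 3962 CPM (UMIs of the gene per 1000000 UMIs of the class in a library) in gad1b cells, against 122 and 104 CPM in slc17a6 cells. Thus both gad1b libraries lay above both slc17a6 libraries by share and by level. These intervals cover counting error only. In neuron-like clusters alone, the gaps in share between the classes were wider for all of the chosen genes, with values given at the end.

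The opioid-family precursors followed the same order. Proenkephalin, penka, was carried by 26.9% and 28.8% of gad1b cells, against 3.04% and 3.50% of slc17a6 cells, at 877 and 404 CPM against 15.6 and 15.0 CPM. Prepronociceptin, pnocb, the precursor of the ligand of the nociceptin receptor, was carried by 23.4% and 28.2% of gad1b cells, against 4.35% and 3.11% of slc17a6 cells. Its level was 340 and 427 CPM against 22.7 and 17.4 CPM. In slc17a6 cells 1 cell held 68.8% and 55.2% of the pnocb UMIs of its library, and the level without that cell was 7.09 and 7.78 CPM. In oligodendrocyte-like cells the shares were 1.78% and 1.89% for penka and 0.972% and 0.809% for pnocb.

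The tachykinin precursor tac1 was carried by 19.2% and 25.2% of gad1b cells, against 2.61% and 5.45% of slc17a6 cells, at 668 and 690 CPM against 4.97 and 9.57 CPM. The slc17a6 shares of tac1 lay near those of oligodendrocyte-like cells, 2.27% and 3.41%, and whether they are background was not tested. Somatostatin, sst1.1, a peptide that inhibits neurons through Gi-coupled receptors, was carried by 12% and 16.0% of gad1b cells, against 3.48% and 3.11% of slc17a6 cells. In oligodendrocyte-like cells sst1.1 was carried by 2.19% and 1.17%. Its level was 1833 and 620 CPM in gad1b cells, against 17 and 44.3 CPM in slc17a6 cells. Few cells set the somatostatin levels. A single gad1b cell held 951 of 1929 sst1.1 UMIs in library 1, and another 259 of 657 in library 2, without which the levels were 929 and 375 CPM. In library 1 the barcodes above the minimums held 3534 sst1.1 UMIs, of which 2005 remained after doublets were removed.

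On the excitatory side, adcyap1b, whose peptide PACAP raises cAMP in its target cells, was carried by 6.59% and 9.20% of gad1b cells, against 53.5% and 54.1% of slc17a6 cells. Its level was 13.3 and 22.6 CPM in gad1b cells and 1816 and 1866 CPM in slc17a6 cells. Oligodendrocyte-like cells carried adcyap1b at 3.16% and 4.31%. NPY, a peptide of the pancreatic polypeptide family, was carried by 4.19% and 1.23% of gad1b cells, against 14.8% and 21.4% of slc17a6 cells, at 9.5 and 3.77 CPM against 665 and 890 CPM. In oligodendrocyte-like cells NPY was carried by 1.86% and 1.35%, so that the gad1b share lay above this background in library 1 and below it in library 2. A separate fugu gene listed as npy held 9 and 55 UMIs in 1 and 9 kept cells.

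The rarest of the 8 was npb, the precursor of a ligand of the receptor family that includes NPBWR2. It was carried by 1.2% and 2.45% of gad1b cells, against 3.91% and 6.61% of slc17a6 cells, whose intervals overlapped in both libraries (0.145 to 4.26% and 0.673 to 6.16% in gad1b cells, against 1.80 to 7.30% and 3.90 to 10.4% in slc17a6 cells). In oligodendrocyte-like cells npb was carried by 0.891% and 0.629%. Its level was 1.90 and 64.1 CPM in gad1b cells, against 887 and 212 CPM in slc17a6 cells. A single gad1b cell held 65 of the 68 UMIs of library 2, and without it the level was 2.83 CPM. A single slc17a6 cell held 624 of the 1250 UMIs of library 1. A few strongly marked cells thus set the npb level in each class.

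**Figure D1:**
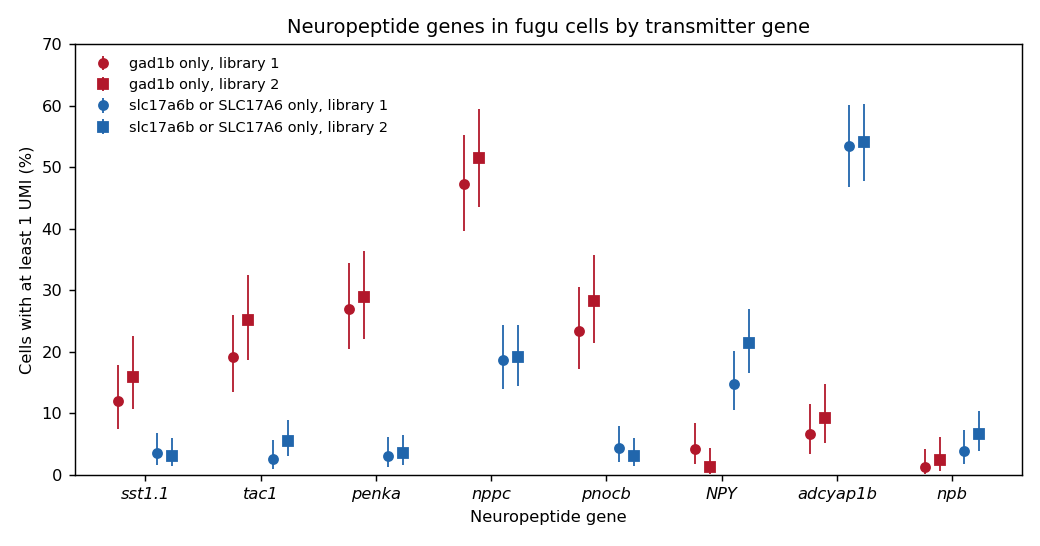
Share of cells with at least 1 UMI of each neuropeptide gene (y axis, percent) in cells with gad1b only (red, left) and with slc17a6b or SLC17A6 only (blue, right), with circles for library 1, squares for library 2 and bars for 95% exact intervals. The red points lie above the blue ones for sst1.1, tac1, penka, nppc and pnocb, and below them for NPY, adcyap1b and npb, with adcyap1b at 53.5% and 54.1% of slc17a6 cells.

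Neurons were not the only source of these transcripts. Neuron-like cells held 94.4% to 97.7% of the kept UMIs of sst1.1, tac1, pnocb, NPY and npb, but 65.2% of those of nppc, 86.4% of those of penka and 91.8% of those of adcyap1b. For nppc, 33.3% and 34.9% of neuron-like cells carried the gene at 3317 and 2607 CPM, against 75.1% and 73.3% of astrocyte-like cells at 828 and 855 CPM. The cells led by her9 and gfap, genes of radial glia in fish, carried nppc at 76.6% and 79.9%, with 657 and 703 CPM. Cycling cells carried it at 45.2% and 44.6%, whereas oligodendrocyte-like cells were at 9.0% and 10.1%. So nppc was spread over most astrocyte-like and her9 cells at a low level, and over a smaller share of neuron-like cells at a higher level.

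The cells led by gpr17 and prdm8b, 57 and 42 in number, stood out for penka, and gpr17 encodes a receptor of committed oligodendrocyte precursors. penka was carried by 18.9% and 18.7% of neuron-like cells, against 52.6% and 42.9% of the gpr17 cells. The penka levels were 568 and 247 CPM in neuron-like cells and 296 and 136 CPM in the gpr17 cells, and these ranges overlap. The vascular mural-like cells, 30 and 44 in number, stood out for adcyap1b. It was carried by 37.8% and 44.6% of neuron-like cells, against 93.3% and 86.4% of the mural-like cells, while its level of 1303 and 1461 CPM in neuron-like cells lay above the 934 and 976 CPM of the mural-like cells. In the remaining populations outside the neurons adcyap1b lay at or under 10.0%.

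**Figure D2:**
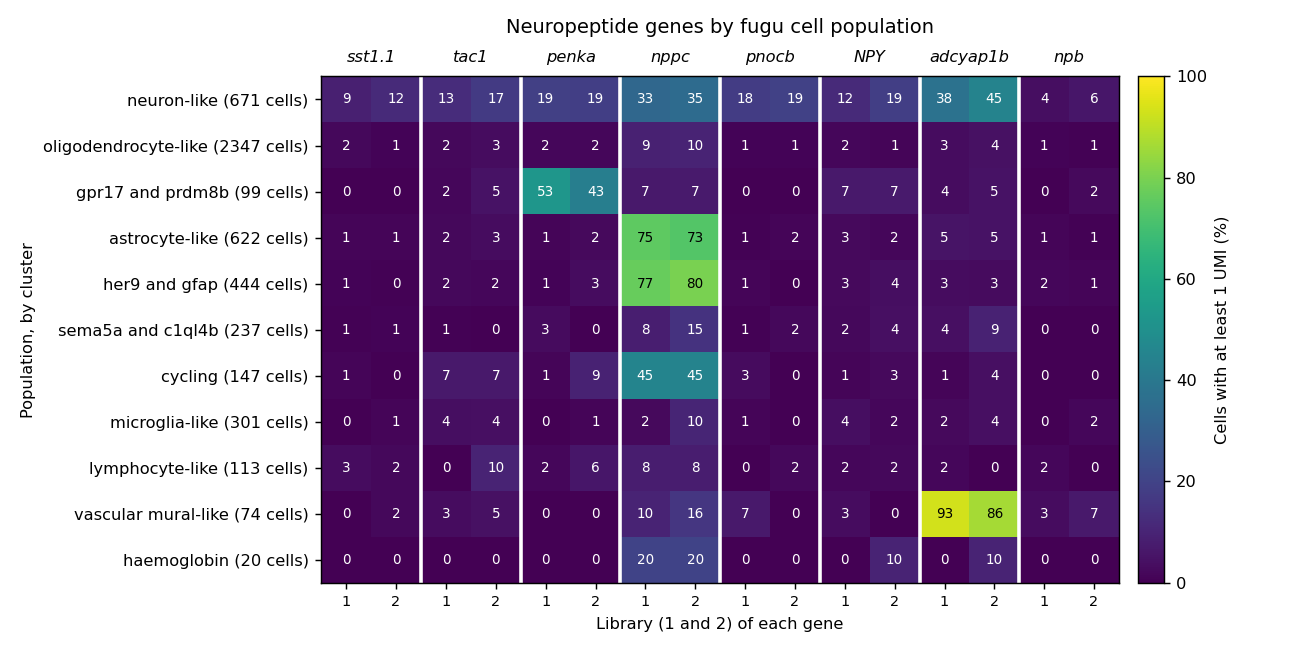
Share of cells with at least 1 UMI (colour and printed percent) of each neuropeptide gene, in libraries 1 and 2 side by side, for 11 populations of fugu cells named by markers or by leading genes. Most genes are high only in the neuron-like row, while nppc is also high in astrocyte-like, her9 and gfap, and cycling cells, penka in gpr17 and prdm8b cells and adcyap1b in vascular mural-like cells.

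The 671 neuron-like cells were divided into 10 groups by clustering without the 8 genes, and the groups differed in their peptides. The group led by hpcal1, c1ql3b and FABP6, 67 cells with gad1b in 93.1% and 86.8%, carried pnocb at 93.1% and 84.2%, nppc at 69.0% and 55.3%, tac1 at 55.2% and 47.4%, penka at 37.9% and 36.8% and sst1.1 at 24.1% and 28.9%. It was the group with the highest shares of pnocb and tac1. nppc was at 13253 and 13389 CPM there, and pnocb at 1409 and 1260 CPM. Its cells also carried ucn3l, a urocortin-like peptide gene, at 24.1% and 21.1%.

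The group led by slc6a5, the neuronal glycine transporter, and mafba held 88 cells with gad1b in 76.1% and 88.1%. It carried nppc at 63.0% and 83.3%, penka at 39.1% and 47.6% and tac1 at 23.9% and 33.3%, with pnocb at 8.70% and 14.3%. Its sst1.1 level was 3718 CPM in library 1 and 79.1 CPM in library 2, but 1 cell held 951 of the 977 sst1.1 UMIs of library 1. By share of cells, sst1.1 was carried by 8.70% in library 1 and 21.4% in library 2. nppc was at 5587 and 4586 CPM in these cells and tac1 at 1362 and 2792 CPM.

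The highest share of penka was found in a group of 40 cells that also carried cholinergic genes. It had chata, choline acetyltransferase, in 54.5% and 50.0% of its cells and slc18a3a, the vesicular acetylcholine transporter, in 27.3% and 33.3%, with gad1b in 77.3% and 88.9% and slc17a6b or SLC17A6 in 0 of 22 and 0 of 18 cells. Here penka was carried by 90.9% and 72.2% and nppc by 86.4% and 72.2%, with penka at 6699 and 1981 CPM. NPY and adcyap1b had 0 UMIs in either library, where the exact intervals for the share of cells with a UMI reach 15.4% and 18.5%.

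Excitatory groups shared adcyap1b. The group led by eva1ba, KCNJ4 and TBXA2R, 94 cells with slc17a6b in 97.4% and 94.5%, carried adcyap1b at 94.9% and 92.7%, NPY at 41.0% and 60% and npb at 15.4% and 23.6%. The group led by SYT9, crabp2a and MAF carried NPY at 47.1% and 42.9% and adcyap1b at 47.1% and 57.1%. The group led by adcy1b, MAF and cbln1 carried adcyap1b at 53.6% and 60% and NPY at 10.7% and 28%. NPY reached 2780 and 3482 CPM in the SYT9 group, and 2552 and 3286 CPM in the eva1ba group. The npb gene had no UMI in the SYT9 and adcy1b groups.

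The largest group, 132 cells led by hoxb5b, phox2bb and ret, contained both kinds of cell, with gad1b in 30.6% and 31.4% and slc17a6b in 66.1% and 67.1%, at a median of 7241 UMIs. It carried adcyap1b at 62.9% and 67.1% and nppc at 24.2% and 30%. In the group led by tfap2e and pax3b, which carried her4.1 and notch1a of Notch signalling in 42.9% and 70% and in 74.3% and 76.7% of cells, all 8 genes stayed at or under 20%. A further group of 52 cells had mbpa, a myelin gene, in every cell, and its peptide shares lay at or under 39.3%.

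**Figure D3:**
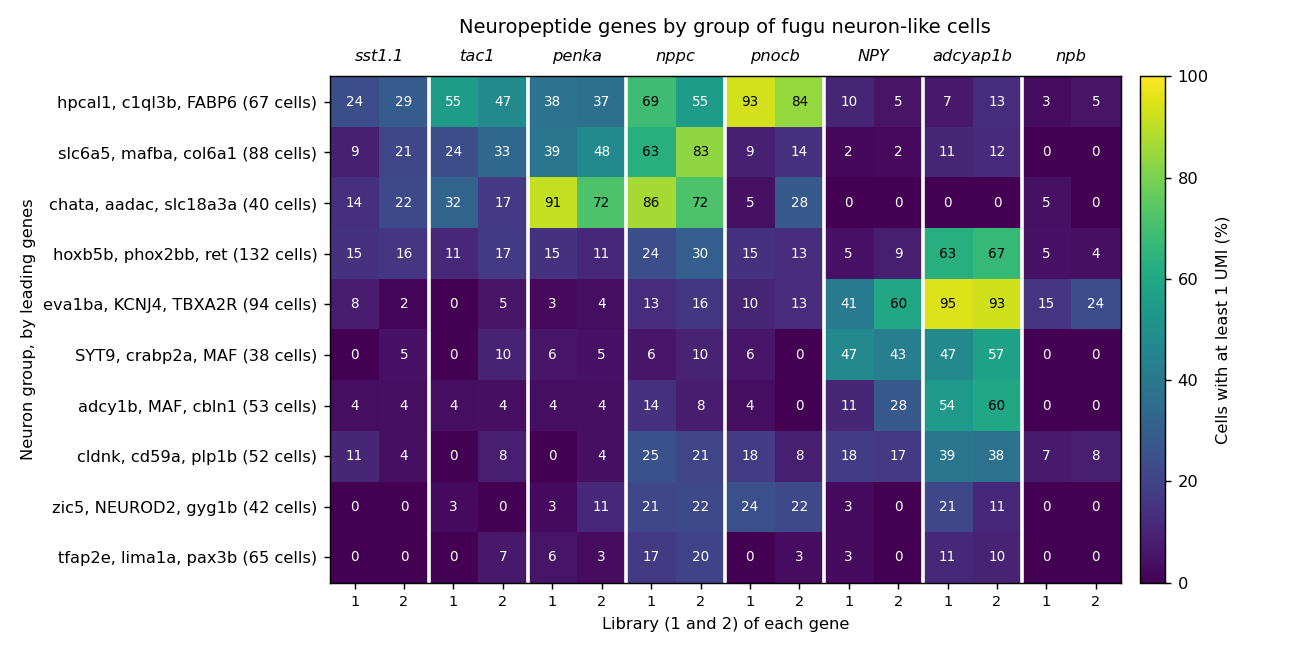
Share of cells with at least 1 UMI (colour and printed percent) of each neuropeptide gene, in libraries 1 and 2 side by side, for 10 groups of fugu neuron-like cells named by leading genes. The upper rows carry nppc, penka, tac1 and pnocb and the eva1ba, SYT9 and adcy1b rows carry adcyap1b and NPY, with pnocb at 93.1% and 84.2% in the hpcal1 row and penka at 90.9% and 72.2% in the chata row.

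Most cells with a transmitter gene, called neurons in the pairs below, carried at least 1 of the genes. Of these cells 67.3% and 66.3% lay in neuron-like clusters and 17.8% and 15.0% in oligodendrocyte-like ones. In neuron-like clusters 79.9% and 84.0% of cells carried at least 1. Among the 410 and 433 cells with a transmitter gene, 70% and 71.6% carried at least 1 and 34.4% and 41.6% at least 2, against 19.9% and 21.2%, and 2.11% and 2.34%, of oligodendrocyte-like cells. In gad1b cells at least 2 were found in 41.9% and 49.1%, and in slc17a6 cells in 28.3% and 35.8%. Of the 28 possible pairs, 18 occurred together in at least 5 cells of each library. The number that the shares of the single genes would give was not computed, so this count does not measure co-expression. At 2 UMIs or more of each gene it was 11 pairs.

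The pairs given first join genes that were more frequent in the same transmitter class. nppc was carried by 78.0% and 67.2% of tac1-positive neurons, against 25.7% and 26.1% of the others, and by 66.7% and 52.5% of penka-positive neurons, against 25.6% and 28.3%. pnocb was found in 46.3% and 32.8% of tac1-positive neurons, against 9.76% and 9.87% of the others. penka was in 34.1% and 27.6% of tac1-positive neurons, against 10.8% and 11.5%, and pnocb in 29.6% and 33.9% of penka-positive neurons, against 11.0% and 9.63%. All 4 of these genes were more frequent in gad1b than in slc17a6 cells, so the pairs with nppc are also given within a class. The pairs without nppc are not given within a class here. Among all gad1b cells, penka was carried by 26.9% and 28.8% and pnocb by 23.4% and 28.2%. The part of the class in those pairs was not tested. Within gad1b cells alone, nppc was carried by 90.6% and 80.5% of tac1-positive cells, against 37.0% and 41.8% of tac1-negative cells, and by 77.8% and 61.7% of penka-positive cells, against 36.1% and 47.4% of penka-negative cells. For penka in library 2 those intervals overlapped, 46.4 to 75.5% against 38.1 to 56.9%.

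The excitatory pairs were centred on adcyap1b. It was carried by 61.9% and 88.3% of NPY-positive neurons, against 30.2% and 28.4% of the others, and by 76.9% and 81.8% of npb-positive neurons, against 32.0% and 34.3%. Within slc17a6 cells alone, adcyap1b was in 76.5% and 89.1% of NPY-positive cells, against 49.5% and 44.6% of NPY-negative cells. It was in 9 of 9 and 16 of 17 npb-positive slc17a6 cells, against 51.6% and 51.2% of npb-negative ones. Across the classes adcyap1b was less frequent with the inhibitory-side genes, at 7.32% and 22.4% of tac1-positive neurons against 36.3% and 38.9% of the others, and at 13% and 15.3% of penka-positive neurons against 36.5% and 40.1%. With cells thinned to 3000 UMIs, 14 of the 28 pairs reached 5 cells in each library.

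**Figure D4:**
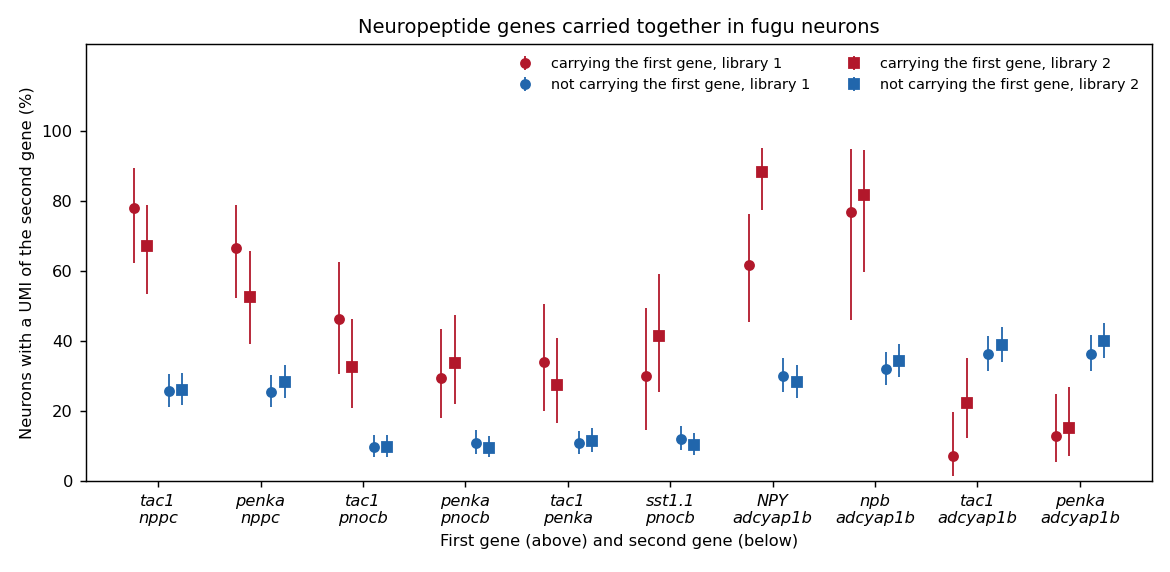
Share of fugu neurons (cells with a transmitter gene) with a UMI of a second neuropeptide gene (y axis, percent), among neurons carrying the first gene (red, left) and among the others (blue, right), for 10 pairs, with circles for library 1, squares for library 2 and bars for 95% exact intervals. nppc was in 78.0% and 67.2% of tac1-positive neurons and adcyap1b in 61.9% and 88.3% of NPY-positive neurons, whereas adcyap1b was below the blue points in tac1-positive and penka-positive neurons.

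Genes whose counts went with a peptide across the 339 and 332 neuron-like cells were ranked by the lower of the 2 libraries' Pearson correlations of log-normalized counts. These are descriptions across cells that share a library and a depth, with no test. For adcyap1b the leading genes were slc17a6b, at 0.73 in both libraries, SLC17A6 at 0.63 and 0.61 and necab1 at 0.56 and 0.54. For nppc they were GAD1, a second glutamate decarboxylase gene, at 0.53 and 0.65, lhx1a at 0.53 and 0.51 and bcl11aa at 0.55 and 0.46. lhx1a, a LIM-homeobox factor of spinal inhibitory neurons, also stood among the leading genes for tac1 and penka, after LAMP5 (0.46 and 0.51) for tac1 and xgb (0.52 and 0.44) for penka. pnocb went with foxp1b (0.49 and 0.50), FABP6 and camk1b, NPY with pvalb7 (0.51 and 0.68), EBF1 and gnai3, and npb with arhgap36 (0.49 and 0.48). For sst1.1 the correlations were low, with NETO2 at 0.34 and 0.32.

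The classes that separate the peptides were also compared across all genes, to describe the cells that carry them. In edgeR's quasi-likelihood test of gad1b against slc17a6 cells, with counts summed per library and class, 191 of 10070 tested genes other than the 8 and the 3 defining genes (1.9%) were higher and 177 (1.76%) lower in gad1b cells, 3.65% in either direction, at a Benjamini-Hochberg adjusted p under 0.05. Of the 8 peptide genes, 5 were carried by a larger share of gad1b cells and 3 by a smaller share, which was not tested. These numbers are a different measure from the shares of called genes, and the same measure over all genes is not given here. The 8 were chosen by their UMI counts in these same libraries, as genes that lead the fugu neuron populations, so their order is only a description. With the library as a block 631 genes were called, in neuron-like clusters alone 717 (344 higher and 373 lower), and without slc17a6-positive library 2 the count was 27. Oligodendrocyte marker genes summed to 23359 and 21149 CPM in gad1b cells, against 28338 and 23831 CPM in slc17a6 cells, and their part in the calls was not tested.

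Factors of spinal neuron subtypes were divided between the classes, with 10 of 19 tested higher, 5 lower and 4 not called, at a median log2 fold change of 1.47, against -0.01 over all genes tested. In neuron-like clusters alone 10 of 20 were higher and 8 lower, at a median of 0.41. lhx1a was at 675 and 1018 CPM in gad1b cells, against 19.2 and 32.9 CPM in slc17a6 cells (log2 fold change 4.97 ± 0.32 SE, edgeR adjusted p = 0.000269). lmx1bb, a homeobox factor of dorsal excitatory neurons, was at 1.90 and 0.94 CPM against 500 and 348 CPM (-8.15 ± 0.36, edgeR adjusted p = 4.7e-05). lbx1b had 139 and 139 CPM against 214 and 197 CPM, and zfhx4 147 and 190 against 256 and 196, and neither passed the test. lbx1b was called lower in gad1b cells with the library as a block (-0.59, edgeR adjusted p = 0.0405), in neuron-like clusters alone (-0.76, edgeR adjusted p = 0.0187), at the higher UMI minimum and at 2 UMIs.

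Transmitter genes other than the defining ones were higher in gad1b cells in 7 of 10 tested, and lower for slc18a2, the vesicular monoamine transporter. GAD1 was at 361 and 253 CPM in gad1b cells, against 3.55 and 3.59 CPM in slc17a6 cells (log2 fold change 6.36 ± 0.30 SE, edgeR adjusted p = 5.6e-05). slc6a5 was at 98.8 and 166 CPM, against 0.709 and 1.2 CPM. Of other peptide genes 5 were tested. ccka, the cholecystokinin precursor, fell to 2.85 and 4.71 CPM in gad1b cells, against 126 and 166 CPM in slc17a6 cells (-5.26 ± 0.33, edgeR adjusted p = 0.000251), and ucn3l was higher in gad1b cells. pyya, a relative of NPY, was at 366 and 609 CPM against 112 and 1.79 CPM, trh at 0 and 0 CPM against 142 and 12.6 CPM and apln at 217 and 186 CPM against 221 and 291 CPM, and none of these 3 passed the test. trh was called lower with the library as a block (edgeR adjusted p = 0.000545), in neuron-like clusters alone (edgeR adjusted p = 0.0427), without slc17a6-positive library 1 and at 2 UMIs. pyya was called higher without slc17a6-positive library 1 (7.97, edgeR adjusted p = 5.8e-08) and at 2 UMIs.

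Genes of peptide release were also compared between the classes, where 3.65% of all 10070 tested genes were called in either direction. Of 16 tested processing and dense-core vesicle genes, 0 were higher and 1 lower, the convertase gene pcsk5b at 22.8 and 21.7 CPM in gad1b cells against 65.3 and 62.2 CPM in slc17a6 cells, with a median log2 fold change over the list of 0.03. In neuron-like clusters alone vgf was higher and pcsk5b and scg3 were lower, where 344 of all 8672 tested genes were higher and 373 lower. cpe, which trims the cut peptides, was at 509 and 462 CPM against 408 and 364 CPM, and scg5, a chaperone of the convertase PC2, at 435 and 377 CPM against 313 and 241 CPM. scg5 was called higher with the library as a block (edgeR adjusted p = 0.0447) and at 2 UMIs. Among 11 tested peptide receptor genes 2 were higher and 0 lower. These were adcyap1r1a, a PACAP receptor, at 173 and 201 CPM in gad1b cells against 63.1 and 52.1 CPM in slc17a6 cells (1.67 ± 0.17, edgeR adjusted p = 0.00273), and npy8ar, a receptor of the NPY family, at 126 and 174 CPM against 35.5 and 32.3 CPM (2.12 ± 0.22, edgeR adjusted p = 0.00265). Both calls were lost without slc17a6-positive library 2 (edgeR adjusted p = 0.142 and 0.15), and in neuron-like clusters alone NPR2 and sstr2a were also called lower. NPBWR2, a receptor of neuropeptide B, was at 30.4 and 31.1 CPM against 31.9 and 27.5 CPM, and oprl1, the nociceptin receptor, at 78.9 and 64.1 CPM against 104 and 89.7 CPM.

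By size of change, the genes that rose most in gad1b cells were fglce, skor1b, tal1, slc6a5 and SHMT2, and those that fell most were MAF, lmx1al, prkg2, lmx1bb and nrn1a. skor1b, tal1 and SHMT2 had no UMI in slc17a6 cells and were at least 22.4-fold, 17.5-fold and 9.72-fold higher in gad1b cells, at a floor of 3 UMIs over both libraries. MAF (1 of 2 fugu genes listed under that symbol), lmx1al, prkg2 and nrn1a had no UMI in gad1b cells and were at least 63.6-fold, 31.8-fold, 19.9-fold and 16.2-fold lower there. fglce was at 121 and 639 CPM against 1.42 and 1.2 CPM. Without slc17a6-positive library 2, lmx1bb stayed called and the other genes except MAF lost their call. The result of MAF, whose symbol 2 genes share, is not given here for that setting. SHMT2 also lost its call without slc17a6-positive library 1 (edgeR adjusted p = 0.0914).

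Neurons with peptides were then compared with neurons without. Peptide-positive cells had at least 2 UMIs over the 8 genes (238 and 267 cells) and peptide-negative cells had 0 (123 and 123 cells), both among cells with a UMI of gad1b, slc17a6b or SLC17A6. The classes were cut on UMIs of the 8 genes, which were chosen as leading the neuron populations in these same counts. A more neuronal peptide-positive class was therefore built in, and calls that follow it are no separate evidence. Peptide-positive cells were also deeper, at medians of 5964.5 and 5910 UMIs against 5245 and 5508. The groups thus differed in kind before any gene was tested. Neuron-like cells made up 87.8% and 89.5% of peptide-positive cells, against 32.5% and 28.5% of peptide-negative cells. Oligodendrocyte markers summed to 7456 and 4860 CPM, against 67227 and 57384 CPM, with 1 and 2 of the 13 markers at 0 in peptide-positive cells and none in peptide-negative cells. The test called 1691 of 9862 genes higher (17.1%) and 1599 lower (16.2%) in peptide-positive cells, 33.4% in either direction, with the 8 genes left out. The genes that rose most, CRHBP, pth1r, rasd1, admp and NMUR1, had no UMI in peptide-negative cells and were at least 7.01-fold to 34.3-fold higher. The calls of rasd1, admp and NMUR1 were lost in neuron-like clusters alone (edgeR adjusted p = 0.0694 to 0.0854), and that of rasd1 without peptide-positive library 2 (edgeR adjusted p = 0.0541). The genes that fell most, irf8, blk, dmbx1a, il1fma and pik3ap1, included irf8, a factor of microglia and macrophages, at 0 and 0.553 CPM against 18.7 and 90.4 CPM. Microglia markers summed to 19.7 and 28 CPM in peptide-positive cells, against 227 and 623 CPM in peptide-negative cells.

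Within neuron-like clusters alone, 209 and 239 peptide-positive cells were set against 40 and 35 peptide-negative cells. Of all 8522 genes tested there, 300 were higher and 375 lower. Here 4 of 15 processing and dense-core vesicle genes rose (cpe, scg5, chga and cadpsa) and 1 fell (pcsk5b), against 11 of 16 higher and 0 lower among all cells with a transmitter gene. cpe was 0.82 higher on the log2 scale (± 0.16 SE, edgeR adjusted p = 0.0117) and scg5 1.03 higher (± 0.20, edgeR adjusted p = 0.0125), while ptprn2 and scg2b did not pass the test. With nppc left out of the peptide count, cpe was 0.43 higher and its call was lost (edgeR adjusted p = 0.129), while scg5 stayed called. Of 5 other peptide genes, pyya, apln and ccka rose and trh fell. Without nppc the calls of pyya (-0.51, edgeR adjusted p = 0.855) and trh (edgeR adjusted p = 0.0774) were lost. ccka was at 131 and 183 CPM in peptide-positive neuron-like cells, against 0 and 0 CPM in peptide-negative ones. Of 10 receptor genes npy8ar rose (1.41), against 8 of 10 among all cells with a transmitter gene, and without nppc it was at 0.52 and its call was lost (edgeR adjusted p = 0.26).

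The largest rises within neuron-like clusters were those of st14b, ccka, calb2b (a calretinin gene), CRHBP (the binding protein of corticotropin-releasing hormone) and KCNJ4, all without a UMI in peptide-negative cells. The largest falls were those of dmbx1a, tal1, gata3, mitfb and dla. tal1 and gata3, factors of a class of ventral spinal interneurons, were at 0 and 1.26 CPM each in peptide-positive cells, against 92.6 and 65.4 CPM for tal1 and 43.9 and 20.1 CPM for gata3 in peptide-negative cells. dla, a ligand of Notch signalling, was at 3.67 and 2.51 CPM against 53.6 and 30.2 CPM. lhx1a rose (1.14 on the log2 scale), but without nppc it was at 0.63 and its call was lost (edgeR adjusted p = 0.124), and 4 of 20 subtype factors fell against 2 that rose. The peptide-positive cells hold many UMIs of single genes by construction, and a neuron with few captured peptide UMIs cannot be told apart from one that makes none.

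The same comparison of classes was made in chicken, where the levels were not used to choose the genes. Of the 8 fugu genes, 6 were matched by symbol to a chicken gene, TAC1, PENK, NPPC, PNOC, NPY and ADCYAP1. The fugu symbols penka, pnocb and adcyap1b end in a letter that their chicken matches lack. Orthology was not checked, and the separate fugu npy gene was not set against chicken NPY. No row of the chicken gene list has the symbol SST or NPB. The chicken libraries held 7626 and 7743 kept cells and shared 17 kept barcodes. Cells with GAD1 only numbered 1007 and 591 and cells with SLC17A6 only 322 and 252, at medians of 16966 and 16789 UMIs against 14929 and 17403 UMIs. In neuron-like clusters lay 767 and 430 of the GAD1 cells but 155 and 80 of the SLC17A6 cells, so the classes differed in make-up. With a further cluster led by TAC1, EBF2 and LMX1B added, the SLC17A6 cells numbered 223 and 198. All 6 genes passed the test, 3 higher and 3 lower in GAD1 cells, where 1.08% of 12291 genes were called higher and 1.42% lower. With the library as a block 559 genes were called in all, against 308 without it, and the 6 calls stayed.

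Of the 6, 3 lay on the same side in fugu and chicken. The share of all genes matched by symbol that do so was not computed. PNOC was at 301 and 325 CPM in GAD1 cells, against 3.01 and 11.2 CPM in SLC17A6 cells (log2 fold change 5.47 ± 0.42 SE, edgeR adjusted p = 0.00432). ADCYAP1 was at 2.04 and 1.65 CPM against 245 and 235 CPM (-7.01 ± 0.14, edgeR adjusted p = 3.9e-05). NPPC was rare, at 6.53 and 6.01 CPM against 0.669 and 1.51 CPM (2.51 ± 0.40, edgeR adjusted p = 0.0387), and its call was lost without either GAD1 library (0.238 and 0.207) and in neuron-like clusters alone (0.0882). The fugu nppc level in gad1b cells was 5362 and 3962 CPM.

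The other 3 lay on the opposite side from fugu. TAC1 was at 21.6 and 66.5 CPM in GAD1 cells, against 716 and 1132 CPM in SLC17A6 cells (-4.45 ± 0.56, edgeR adjusted p = 0.0196), carried by 14.5% and 20.1% of GAD1 cells against 42.5% and 61.1% of SLC17A6 cells. In fugu the gad1b cells were the higher class for tac1. PENK was at 361 and 382 CPM in GAD1 cells, against 1082 and 1520 CPM in SLC17A6 cells (-1.84 ± 0.17, edgeR adjusted p = 0.00879). Its shares went the same way, 43.1% and 40.3% against 46.0% and 54.4%. The intervals of these shares overlapped in library 1 but not in library 2 (36.3 to 44.3% against 48.0 to 60.6%). Its call was lost without either GAD1 library (0.0695 and 0.0797). NPY was at 227 and 217 CPM in GAD1 cells, against 27.4 and 20.8 CPM in SLC17A6 cells (3.16 ± 0.15, edgeR adjusted p = 0.00114), carried by 17.5% and 17.6% against 13.7% and 9.92%.

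Cells with neither transmitter gene gave the chicken background, in which PENK was carried by 17.7% and 16.9%, NPY by 12% and 7.78% and TAC1 by 9.12% and 11.6%, at medians of 11720 and 12233 UMIs. The SLC17A6 share of NPY therefore lay near background. With cells thinned to 5000 UMIs, NPY was carried by 11.0% and 11.2% of GAD1 cells, against 5.59% and 5.95% of SLC17A6 cells. In thinned cells with neither gene it was 6.66% and 3.80%. The NPY order thus held by share as well as by level. TAC1 was strongest in 1 cluster of 72 and 129 cells led by TAC1 itself, EBF2 and LMX1B, which had too few neuron markers to be named, at 2696 and 2013 CPM. In neuron-like clusters, which leave it out, TAC1 was still lower in GAD1 cells (-3.03, edgeR adjusted p = 0.0245). The chicken cells are embryonic and the fugu cells juvenile, so species and stage cannot be told apart. The genes were also matched by symbol only.

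**Figure D5:**
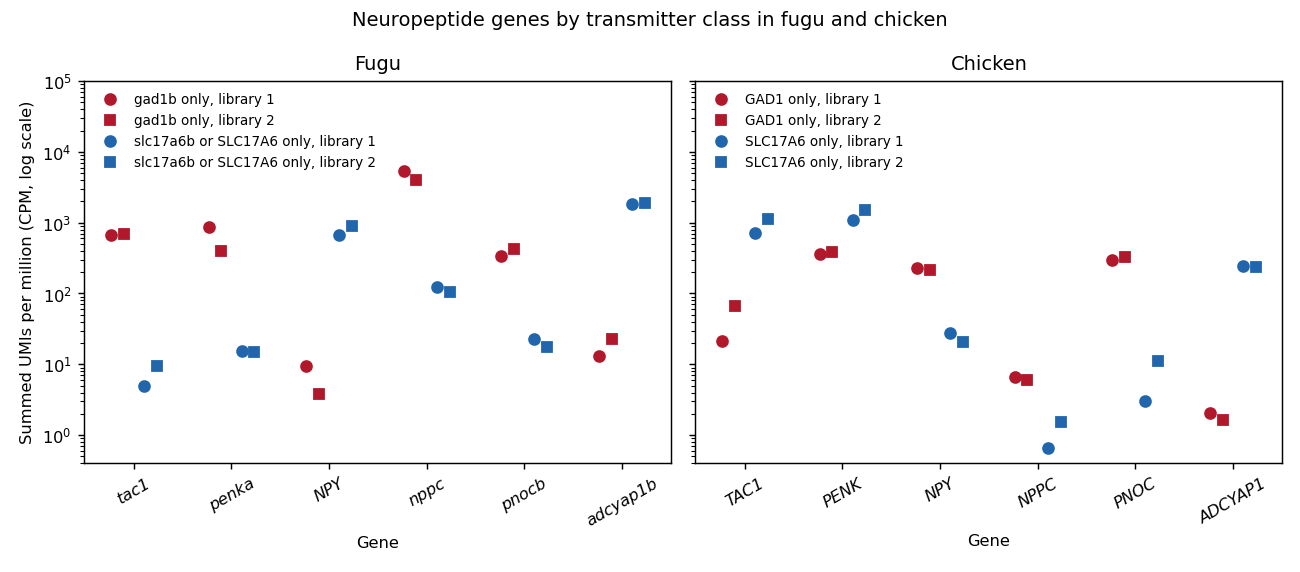
Summed level (y axis, CPM on a log scale) of 6 neuropeptide genes in inhibitory cells (red, left) and excitatory cells (blue, right) of fugu and of chicken, with circles for library 1 and squares for library 2. For tac1, penka and NPY the red and blue points change places between the panels, with NPY at 9.5 and 3.77 CPM in gad1b cells of fugu and 227 and 217 CPM in GAD1 cells of chicken, while nppc, pnocb and adcyap1b keep their order.

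Of the subtype factors in the chicken classes, PAX2 and LMX1B are given as examples. How many of the factors follow the fugu order was not counted. PAX2 was at 488 and 596 CPM in GAD1 cells, against 8.53 and 6.81 CPM in SLC17A6 cells, and LMX1B at 3.88 and 7.49 CPM against 378 and 705 CPM. Of the 34 subtype factors tested 9 were higher and 9 lower, at a median log2 fold change of -0.41, against 1.47 in fugu. The largest rises were those of PKD2L1, SPINK5, PKD1L2, GATA2 and SLC6A5, of which PKD2L1 encodes a channel of neurons that contact the cerebrospinal fluid, and the largest falls were those of POU4F1, LHX9, NRN1, EVX1 and IAPP. POU4F1, LHX9 and EVX1 had no UMI in GAD1 cells and were at least 54.2-fold, 38.6-fold and 30.3-fold lower there. The calls of POU4F1, LHX9, EVX1 and IAPP were lost without either GAD1 library (edgeR adjusted p = 0.0797 to 0.236), that of EVX1 without SLC17A6 library 2 (edgeR adjusted p = 0.0659) and that of IAPP at the higher UMI minimum (edgeR adjusted p = 0.0524). Of 12 other peptide genes tested, GRP, the gastrin-releasing peptide gene, was at 156 and 110 CPM in GAD1 cells, against 5.02 and 3.22 CPM in SLC17A6 cells, NTS (neurotensin) was higher and NMU (neuromedin U) lower. The NTS call (0.78, edgeR adjusted p = 0.0499) was lost without any 1 of the 4 class libraries (edgeR adjusted p = 0.0598 to 0.261), without doublet removal, at the higher UMI minimum and in neuron-like clusters alone (0.27, edgeR adjusted p = 0.578). Of 13 processing and dense-core vesicle genes 0 were higher and 1 lower (PCSK2, 147 and 145 CPM against 260 and 279 CPM). CHGB, a granin gene, missed the threshold (-1.11, edgeR adjusted p = 0.0659) and was called lower with the library as a block (-1.08, edgeR adjusted p = 0.0155), in neuron-like clusters alone, with DESeq2, without the filter on low counts, without either SLC17A6 library and at 2 UMIs.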

How the data were processed

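Single-cell suspensions were sequenced with 10x 3' chemistry. The authors made UMI counts per gene and barcode by Cell Ranger 7.2.0, fugu reads against a Takifugu rubripes reference and chicken reads against a Gallus gallus one, and deposited matrices of all barcodes without cell calling. Sequences, coordinates and the 2 mudskipper libraries were not used here.

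Barcodes above the authors' minimums were kept (UMIs 3000 and genes 90 and 80 in fugu, UMIs 5000 and 5500 and genes 150 and 160 in chicken). Doublet scores came from Scrublet (scanpy 1.11.5), and the top-scoring 0.8% for every 1000 barcodes were discarded. Cells were clustered in Seurat 5.3.0 with 2000 variable features without the 8 genes, 10 principal components and resolution 0.5, and neuron-like cells again at resolution 1, with no integration. Clusters were named from marker lists and otherwise by leading genes, after the clusters had been seen. In fugu 9878 and 9078 UMIs of nppc lay in kept cells, at 631 and 582 CPM, against 704 and 859 CPM in barcodes of up to 100 UMIs. For tac1 it was 56.6 and 91.5 against 158 and 206 CPM, and for NPY 63.8 and 103 against 175 and 166 CPM. The class gene gad1b was at 40.5 and 53.3 against 139 and 145 CPM. Of the 8 genes, only sst1.1 (128 against 123 CPM) and npb (82.3 against 76.4 CPM) were higher in kept cells, both in library 1.

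UMI counts were summed per library and class and tested with edgeR 4.0.16 (TMM, filterByExpr, quasi-likelihood, Benjamini-Hochberg), with DESeq2 1.42.0 as an alternative. Other alternatives were no filter on low counts, the library as a block, leaving out each library, no doublet removal, a higher UMI minimum, other minimums per class and neuron-like clusters alone. Fold changes are the first class named over the second, with the prior count of edgeR, and intervals are exact binomial at 95%. Both classes of a library stem from 1 pool of animals, so the library pairs them. Deviations of paired sums from their class means correlated at 0.22 in the transmitter classes of fugu, 0.18 in the peptide classes and 0.25 in chicken. The test was tried on simulated data with 200 genes changed 4-fold and recovered 85.5%, 87.0% and 96.5% of them, over 10012, 9706 and 12259 genes, for these 3 comparisons. It made 5, 14 and 9 false calls. The simulated counts had the same spread between libraries for all genes and no pairing, unlike the data, so these rates need not hold for the data.

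Named genes are the 8 members, for each the 3 genes with the highest correlation in the lower library among genes detected in 5% of neurons or more, the 5 largest changes each way per comparison with an adjusted p under 0.05 and 1 direction in both libraries, and from each list up to 4 genes of at least 20 CPM. Genes beyond these were named after their values were seen: ucn3l, slc18a2, pcsk5b, chga, cadpsa, PCSK2, chata, slc18a3a, her4.1, notch1a, mbpa, phox2bb, NTS, NMU, CHGB, vgf, scg3, NPR2, sstr2a, nppcl2 and the largest changes within neuron-like clusters. The members and lists were chosen with earlier results of these data known. A result for 1 transmitter gene is not reported here.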

Additional observations from a re-analysis of the deposited data

Results flagged for a closer look

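In each of 3 genes both fugu libraries lay on one side and both chicken libraries on the other when inhibitory cells were set over excitatory cells. How many other genes matched by symbol lie on opposite sides was not counted. This difference was not tested. The values are log2 ratios of summed CPM. For tac1 the ratio was 7.07 and 6.17 in fugu, against -5.05 and -4.09 for TAC1 in chicken, a difference of 11.19 between the means. For penka it was 5.81 and 4.75 in fugu, against -1.58 and -1.99 for PENK in chicken, a difference of 7.07. For NPY it was -6.13 and -7.88 in fugu, against 3.05 and 3.38 in chicken, a difference of -10.22. In fugu the lower class held few UMIs, 7 and 16 of tac1 and 22 and 25 of penka in slc17a6 cells. The gad1b cells held 10 and 4 UMIs of NPY, so the sizes of these ratios are uncertain. The genes were also chosen on the fugu counts, so the fugu order is a description. No outlier could be sought, since no group had more than 2 libraries.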

How the results depend on the processing

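The counts of called genes and the shares of the peptide genes by class both moved. Between gad1b and slc17a6 cells 368 genes were called, against 631 with the replicate block, 717 in neuron-like clusters alone and 872 with a minimum of 2 UMIs per class gene, and leaving out 1 library of a class gave 27 to 509 (27 without slc17a6-positive replicate 2). Between peptide-positive and peptide-negative cells 3290 were called, against 3473 with the block, 675 in neuron-like clusters alone and 444 in those clusters without nppc, and 2041 to 3511 with 1 library left out (2041 without peptide-positive replicate 2). In chicken 308 were called, against 603 with DESeq2, 583 without the filter on low counts, 559 with the block and 536 in neuron-like clusters alone, and 72 to 650 with 1 library left out (84 and 72 without GAD1-positive replicates 1 and 2, and 650 without SLC17A6-positive replicate 1). Of the 6 chicken neuropeptide genes, all stayed called with the block. The 18 pairs of neuropeptide genes became 11 at 2 UMIs or more and 18 to 20 with 1 library left out. In neuron-like clusters alone the gap, gad1b share minus slc17a6 share, was wider for every peptide gene than among all kept cells. It was 48.2 points for nppc, 34.9 for penka, 31.2 for pnocb, 25.4 for tac1 and 14.5 for sst1.1. For adcyap1b it was -70.7 points, for NPY -23.7 and for npb -6.03. With cells thinned to 3000 UMIs the gap was narrower for tac1 (14.7) and penka (21.8) and wider for nppc (34.1).

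Some single genes changed direction. Between peptide-positive and peptide-negative cells, the log2 fold change was -0.51 for pyya in neuron-like clusters without nppc, -4.57 to 7.16 for trh with 1 peptide-negative replicate left out (7.16 without replicate 1) and -0.28 and -0.25 for zfhx4 in neuron-like clusters with and without nppc. In chicken it was -1.16 to 0.76 for MAF with 1 SLC17A6-positive replicate left out (0.76 without replicate 2) and 0.92 in neuron-like clusters. The causes were not tested. At medians of 5386 and 5455 UMIs per fugu cell, a neuron without a UMI of a peptide gene cannot be called negative for it. The settings without nppc, and the addition of the EBF2 and LMX1B cluster in chicken, were chosen after seeing the data.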
